A study of Mus musculus with 9 samples.

Results

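Mouse embryonic stem cells (ESCs) that lack DNMT1 but carry a catalytically inactive form of it were followed by RNA-seq from the undifferentiated state (day 0) to day 2 of differentiation. The comparison covers 15074 genes and 38385 repeat copies, which is every gene and copy listed in the deposited tables apart from 21 of the 15095 gene entries that name no gene or carry a date. It rests on 2 of the 9 libraries of the series, 1 for each day. With 1 library per side there is no replicate error, so no difference between these 2 libraries has a significance test, and a threshold below marks a size and not a call of significance.

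The cells, called 1KO+1CI, are Dnmt1-/- ESCs of the J1 background with a transgene for DNMT1 carrying C1229S, a cysteine-to-serine change in the catalytic centre, driven by the CAG promoter. The study made independent clones of this line, and each library here comes from a single culture whose clone the labels used here do not explain. WT J1 ESCs and the parental Dnmt1-/- line (1KO) were taken through the same days and are used for comparison, again with 1 library per day. All lines were grown with LIF on mitomycin C-treated mouse embryonic fibroblasts, and feeders were removed by plating on gelatin before the cells formed embryoid bodies without LIF for 1 day and then grew attached. Values are FPKM, read counts scaled by the length of the transcript or repeat and by library size, and a difference is log2(FPKM + 1) at day 2 minus that at day 0 throughout.

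LIF acts through its receptor, JAK kinases and STAT3 to hold mouse ESCs in the naive state, with Klf4, Tfcp2l1 and Socs3 among its targets. When LIF is withdrawn, cells pass through a formative, epiblast-like state in which naive factors such as Nanog and Prdm14 decline and Otx2, Pou3f1, Fgf5 and the de novo DNA methyltransferases come on. DNMT1 copies methylation to the new DNA strand after replication, and many endogenous retroviruses of the IAP group are kept silent by DNA methylation.

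If 1 step in the FPKM values is 1 read, the 1KO+1CI libraries held about 23900000 reads at day 0 and 21200000 at day 2, within the 20200000 to 28000000 of the whole series. Whole reads could be recovered for 22.1% of genes, and ratios for those genes carry an exact 95% binomial (Clopper-Pearson) interval that covers counting error only. Dnmt1, the targeted gene, lies on chromosome 9 from 20907209 to 20959888. It had 315 FPKM in 1KO+1CI cells at day 0 and 129 FPKM at day 2, a difference of −1.28. In WT cells it went from 74.0 to 80.4 FPKM, and in 1KO cells from 13.7 to 17.4 FPKM. Dnmt1 RNA in 1KO+1CI cells thus stood above both other lines on each day, and it was lower at day 2 than at day 0 only in the line with the transgene. Values per gene symbol do not separate the transgene from what is still read from the disrupted locus. ESC identity genes were high on both days, with Pou5f1 at 766 and 645 FPKM and Sox2 at 173 and 159 FPKM.

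Feeder fibroblasts had to be considered before any list was read. Of 26 fibroblast genes (collagens, Lox, Thy1, Prrx1 and others), 23 are in the table and the others, Lum, Ctgf and Cyr61, are not listed. All 23 were lower at day 2 in 1KO+1CI cells, 20 of them by at least 1, against 3.32% of all genes. Their median was −1.95, against 0.03 over all genes. Their summed level went from 1153 to 433 FPKM in 1KO+1CI, from 1133 to 361 FPKM in 1KO and from 584 to 424 FPKM in WT cells. The lowest value of a listed marker in any library was 0.143 FPKM. No gene is listed with a value of 0 in any library, so a marker at 0 would not be seen. Col3a1, a fibrillar collagen, had 38.0 FPKM at day 0 and 1.11 FPKM at day 2, the deepest difference of any gene at −4.21. Tagln and Lgals1, which other cell types also express, differed least, at −0.37 and −0.48. In bulk RNA, fewer cells of a type and less RNA per cell cannot be told apart. The part of feeder RNA in the lower values described below was not tested.

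Over all 15074 genes, the median difference was 0.03 in 1KO+1CI cells, and 77.9% of genes differed by less than 0.5 in either direction. At least 1 higher at day 2 were 273 genes, 1.81% of those listed, and at least 1 lower were 500 genes, 3.32%. These shares are the background for the counts of list members in 1KO+1CI cells below. In WT cells 329 genes were at least 1 higher and 584 at least 1 lower, and in 1KO cells 209 and 500. The number of genes at least 1 lower thus exceeded the number higher in each line.

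**Figure D1:**
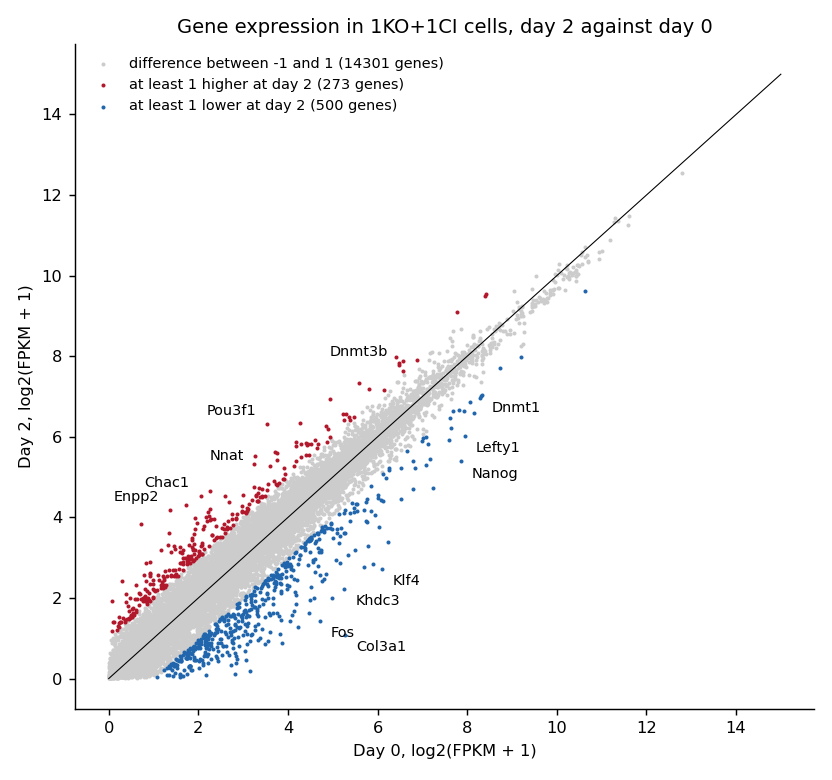
Expression of 15074 genes in 1KO+1CI cells at day 0 (horizontal axis) and day 2 (vertical axis), both as log2(FPKM + 1), with 1 point per gene and the diagonal marking equal values. The 273 red points lie at least 1 above the diagonal and the 500 blue points at least 1 below it, with Col3a1 and Klf4 farthest below among the labelled genes.

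The 12 genes with the largest positive difference were Mir7036, Enpp2, Pou3f1, Foxi3, Chac1, Sall2, Car3, Nnat, Adm2, Sumo2, Car4 and Gstt2. Enpp2, which encodes autotaxin, an enzyme that makes lysophosphatidic acid, had 1.59 FPKM at day 0 and 17.3 FPKM at day 2, a difference of 2.82. Pou3f1, a POU-domain factor of the epiblast on chromosome 4 from 124656807 to 124660655, stood at 10.6 FPKM on day 0 and 78.2 FPKM on day 2 (2.77). Foxi3, a forkhead factor, was counted with 66 reads at day 0 and 479 at day 2, an FPKM ratio of 8.18 (exact 95% interval 6.31 to 10.7). Adm2, which encodes the peptide intermedin, went from 7 to 120 reads, a ratio of 19.3 (exact 95% interval 9.09 to 49.1). For Foxi3 and Adm2, whose reads were recovered, the interval of the ratio lay above 1. Mir7036, first in the order, rests on 1 read at day 0 and 18 at day 2, and lies within Srrt on the same strand, so its reads cannot be told from those of Srrt. Sall2, a zinc finger gene, had 3.76 and 24.0 FPKM (2.39), and Nnat, an imprinted gene for neuronatin, had 8.65 and 44.8 FPKM (2.25). Car3 and Car4 encode carbonic anhydrases and differed by 2.27 and 2.08, and Gstt2, a glutathione transferase, by 2.07.

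The 12 deepest negative differences belonged to Col3a1, Klf4, Fos, Lox, Khdc3, Col8a1, Mir6935, Fosb, Ly6a, Col1a2, Col1a1 and Ccdc80. Klf4, a naive pluripotency factor on chromosome 4 from 55527143 to 55532466, had 67.1 FPKM at day 0 and 5.57 FPKM at day 2, a difference of −3.37, from 4889 and 360 reads. Fos, an immediate early gene on chromosome 12 from 85473890 to 85477273, had 25.1 and 1.70 FPKM (−3.28), and its relative Fosb had 7.87 and 0.133 FPKM (−2.97). Both factors were also among the deep differences of the other lines, with Fos at −3.91 in WT and −3.69 in 1KO cells. Khdc3, a maternal-effect gene of the egg, had 37.3 and 3.69 FPKM (−3.03). Ly6a, which encodes the surface protein Sca-1, had 17.8 and 1.42 FPKM (−2.96). The collagens, Lox and Ccdc80 are genes of connective tissue and moved in the same direction as the fibroblast list. Mir6935 lies within Actg1 on the same strand, and rests on 46 reads at day 0 and 4 at day 2.

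Of the 12 highest genes, Sumo2 stands apart by its direction in the other lines. Sumo2 encodes a ubiquitin-like modifier and lies on chromosome 11 from 115523102 to 115536276. It had 18.2, 80.8 and 160.5 FPKM on days 0, 2 and 4 in 1KO+1CI cells. At days 0 and 2 it had 149.5 and 20.5 FPKM in WT cells and 204 and 100.5 FPKM in 1KO cells. The difference was 2.09 in 1KO+1CI cells, −2.81 in WT and −1.01 in 1KO cells. Sumo2 has near-identical processed copies elsewhere in the genome, so how its reads were assigned is uncertain.

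The naive pluripotency list held 20 genes, all in the table. In 1KO+1CI cells 12 of the 20 were at least 1 lower at day 2, against 3.32% of all genes, and none was at least 1 higher. The median was −1.05 in 1KO+1CI cells, −0.84 in 1KO cells and 0.06 in WT cells. Nanog had 232 and 40.9 FPKM in 1KO+1CI cells, a difference of −2.48, against −1.79 in 1KO and −0.86 in WT cells. Prdm14, a repressor of epiblast genes, went from 600 to 74 reads, an FPKM ratio of 0.139 (exact 95% interval 0.108 to 0.177). Dppa3, also called Stella, had 90.3 and 20.8 FPKM (−2.06). Nanog, Prdm14 and Dppa3 were thus lower at day 2 than at day 0 in 1KO+1CI cells. Tfcp2l1, Tbx3 and Zfp42 had differences of −1.88, −1.78 and −1.28 in 1KO+1CI cells and of 0.26, 0.25 and 0.34 in WT cells. In 1KO cells they were lower too, at −1.18, −1.65 and −0.86. Esrrb (−1.09), Tcl1 (−1.25), Stat3 (−1.26), Klf2 (−1.01) and Dppa5a (−1.01) made up the rest of the 12, with Klf4. Gbx2, the highest member at 0.50, Fgf4 (0.09) and Nr0b1 (0.02) were the 3 members above 0. By day 4, Zfp42 was at 14.5 FPKM and Esrrb at 11.4 FPKM in 1KO+1CI cells, while Nanog was back at 157 FPKM.

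Core pluripotency genes, which naive and formative cells share, differed little. None of 12 reached 1 in either direction, and the median was −0.13. Utf1 was highest, from 202 to 332 FPKM (0.71), and Tdgf1, a Nodal co-receptor, lowest, from 286 to 182 FPKM (−0.65). Below 0 were 8 of the 12 core genes and 17 of the 20 naive genes, while the median over all genes was 0.03. The mean of the core list was −0.02, so that list had no clear direction.

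Of 16 genes of the LIF receptor and STAT3 pathway, 8 were at least 1 lower, against 3.32% of all genes, and none was at least 1 higher, with a median of −0.90. Medians were −0.73 in both WT and 1KO cells. Among the receptor chains, Lifr differed by −0.12 (7.58 and 6.87 FPKM), Il6st, the shared gp130 chain, by −1.06 (21.7 and 9.86 FPKM) and Osmr by −1.89 (4.33 and 0.434 FPKM). Stat3 itself had 30.5 and 12.2 FPKM (−1.26). Targets differed more than the receptor Lifr. Socs3, a feedback inhibitor of JAK signaling on chromosome 11 from 117966079 to 117970047, went from 1487 to 173 reads, a ratio of 0.131 (exact 95% interval 0.111 to 0.154). Bcl3, an atypical IκB protein, went from 754 to 101 reads, a ratio of 0.151 (exact 95% interval 0.121 to 0.186). Pim3, a kinase, differed by −1.04, and Klf4 and Tfcp2l1 are members of this list as well. In 1KO+1CI cells Socs3 had 22.8 and 2.99 FPKM on days 0 and 2, compared with 24.4 and 2.17 FPKM in WT and 19.9 and 2.01 FPKM in the 1KO line. The lines were thus alike in Socs3 to within 1 FPKM at day 2.

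The RefSeq promoter table (GRCm38.p6) was searched for TTCNNNGAA, the palindrome that STAT proteins bind, in the 250 bases before each start on both strands. Of all 32851 promoters 7.02% hold it, and of 17 promoters of 15 genes of the LIF list 1 does, that of Socs3. In the naive list 1 of 19 promoters, from 15 genes, holds it, that of Esrrb. A match describes letters only and does not show binding. The stretches of 90 bases around the matches are shown because Socs3 is, after Klf4, the lowest-lying member of the LIF list and Esrrb a main naive factor. They lie at chr11:117969471-117969560 on the minus strand and chr12:86360899-86360988 on the plus strand, with the match in capitals. The RefSeq start used for Socs3 differs from the GENCODE one. Its stretch therefore lies before the RefSeq start but within the GENCODE span of the gene given above.
Socs3: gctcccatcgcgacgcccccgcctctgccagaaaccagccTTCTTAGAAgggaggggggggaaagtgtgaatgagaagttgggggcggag
Esrrb: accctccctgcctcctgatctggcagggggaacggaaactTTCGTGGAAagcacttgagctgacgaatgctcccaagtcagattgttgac

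Formative epiblast genes were higher as a group. Of 21, 9 were at least 1 higher, against 1.81% of all genes, and none was at least 1 lower, with a median of 0.78. Medians were 0.74 in 1KO and 0.55 in WT cells. After Pou3f1 and Sall2, the largest differences were those of Pim2, a kinase (29.6 and 121 FPKM, 2.00), Fgf5, an epiblast growth factor (3.65 and 16.7 FPKM, 1.93), and Otx2, a homeobox factor (17.2 and 53.3 FPKM, 1.58). Grhl2, a factor that opens epithelial enhancers, had 8.44 and 26.1 FPKM (1.52), and Sox3 went from 194 to 475 reads, a ratio of 2.76 (exact 95% interval 2.33 to 3.28). The members were not alike in timing. Fgf5 reached 67.0 FPKM at day 4, while Pou3f1, at 48.5 FPKM, Otx2, at 34.3 FPKM, and Grhl2, at 12.7 FPKM, were lower at day 4 than at day 2. Foxd3 (0.05), Zic2 (0.11) and Zic5 (0.17) were near 0, and Tead2 was lowest, with 47.0 and 28.3 FPKM (−0.71). In WT cells Fgf5 and Sox3 had negative differences, −1.18 and −1.19, and Pou3f1 and Sall2 differed by 0.55 and −0.19. In 1KO cells all of these were higher at day 2, Fgf5 by 1.75, Sox3 by 0.65, Pou3f1 by 2.27 and Sall2 by 2.00.

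**Figure D2:**
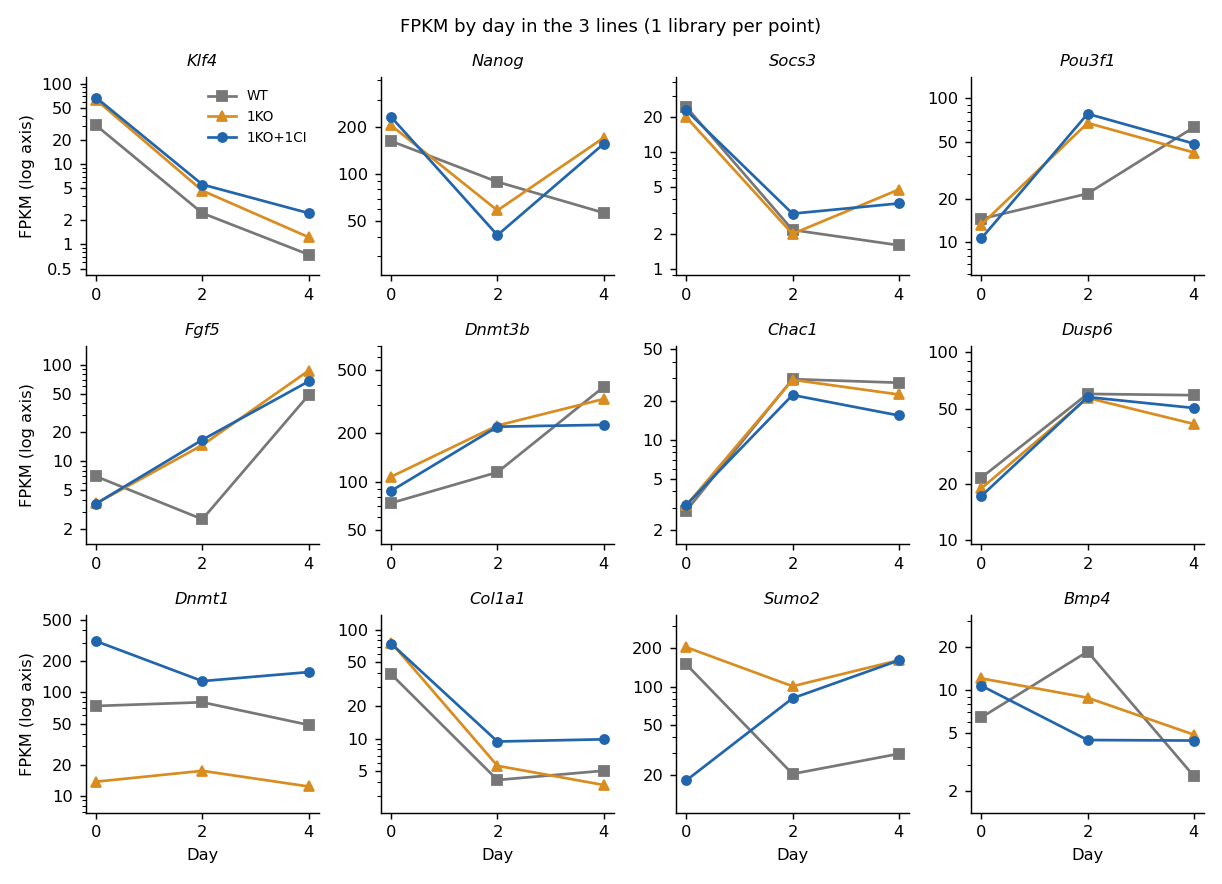
FPKM (log axis, scaled for each gene) of 12 genes at days 0, 2 and 4 in WT (squares), 1KO (triangles) and 1KO+1CI cells (circles), with 1 library per point. Klf4, Socs3 and Col1a1 drop by day 2 in each line. Fgf5 at day 2 is at 16.7 FPKM in 1KO+1CI, 14.7 FPKM in 1KO and 2.52 FPKM in WT cells. Sumo2 at day 0 is at 18.2 FPKM in 1KO+1CI, far under the 204 FPKM of 1KO cells.

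Of 16 DNA methylation and TET genes, 2 were at least 1 higher and 2 at least 1 lower, against 1.81% and 3.32% of all genes. Their median was 0.21. Dnmt3a and Dnmt3b, the de novo methyltransferases, went from 18.7 to 55.8 and from 87.6 to 220 FPKM (1.53 and 1.32). Their cofactor Dnmt3l had 203 and 304 FPKM (0.58). Dnmt1 and Gadd45b, a stress-induced gene linked to demethylation (320 and 109 reads, −1.19), were the lower pair. Uhrf1, which guides DNMT1 to hemimethylated DNA, differed by 0.06, its relative Uhrf2 by 0.22, and the remodeler Hells by 0.20. The 3 TET dioxygenases diverged, with Tet1 at −0.48, Tet2 at −0.87 and Tet3 at 0.80, though Tet3 stayed below 3 FPKM. Tdg and Mbd4, glycosylases of base excision, differed by 0.36 and 0.16, Mbd3 by 0.31, Gadd45a by 0.61 and Zbtb38 by −0.35.

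Of 22 FGF and ERK signaling genes, 4 were at least 1 higher, against 1.81% of all genes, and none was at least 1 lower, with a median of 0.30. In WT cells 5 were at least 1 higher and 2 at least 1 lower. Besides Fgf5, the members at least 1 higher in 1KO+1CI cells were feedback inhibitors of ERK signaling. They were Dusp4 (12.2 and 47.9 FPKM, 1.89), Dusp6 (17.2 and 57.8 FPKM, 1.69) and Spry4 (14.0 and 36.2 FPKM, 1.31). Dusp4, Dusp6 and Spry4 were at least 1 higher in all 3 lines, at 1.41, 1.44 and 2.12 in WT and 1.55, 1.55 and 1.25 in 1KO cells. Other genes read as ERK outputs did not follow, with Etv5 at −0.31, Etv4 at 0.29 and Egr1, the lowest member, at −0.77. The receptor Fgfr1 differed by 0.18 and the ligand Fgf4 by 0.09.

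In the Nodal and activin pathway 4 of 17 genes were at least 1 lower and 1 was at least 1 higher, against 3.32% and 1.81% of all genes, with a median of −0.33. The ligand Nodal had 31.9 and 39.7 FPKM (0.31), while the inhibitors that it induces, Lefty1 (245 and 64.1 FPKM, −1.92) and Lefty2 (193 and 59.7 FPKM, −1.68), were lower. Smad7, an inhibitory SMAD, and the protease gene Pcsk6 differed by −1.23 and −1.04. Skil, a corepressor of SMADs, was higher, at 23.4 and 59.2 FPKM (1.30). Nodal and the inhibitors Lefty1 and Lefty2 thus differed in direction.

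In the BMP list of 18 genes, 2 were at least 1 higher and 3 at least 1 lower (median −0.09). The shares of all genes were 1.81% and 3.32%. The ligand Bmp4 had 10.7 and 4.49 FPKM (−1.09), whereas in WT cells it had 6.45 and 18.5 FPKM (1.39). In 1KO cells Bmp4 differed by −0.41. Smad7, given above, is the second lower member. The inhibitors of differentiation Id1 (21.8 and 55.9 FPKM, 1.32) and Id2 (12.4 and 42.3 FPKM, 1.69) were higher, and Id3 differed by −0.69. Grem1, a BMP antagonist, went from 697 to 213 reads (−1.40), the same direction as the fibroblast list. For WNT signaling, 1 of 21 genes was at least 1 higher and 2 at least 1 lower, against the same shares, with a median of −0.05. The higher gene was the receptor Fzd7 (18.7 and 44.5 FPKM, 1.21). The lower genes were Fzd5 (−1.25) and the target Sp5 (221 and 38 reads, −1.54). Axin2, another target, had 3.04 FPKM on both days.

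Germ layer lists had few members past 1 in either direction at day 2. Of all genes, 1.81% were at least 1 higher and 3.32% at least 1 lower. Of 13 primitive streak genes none was at least 1 higher and 1, Sp5, was at least 1 lower (median 0.01), and Gsc, Wnt3a, Mesp1, Tbx6, Cer1 and Cdx2 are not listed. T, the streak factor brachyury, had 0.901 and 0.438 FPKM, and Eomes 1.06 and 2.65 FPKM (0.83). At day 4 the same genes had 27.2 and 38.5 FPKM, so their higher levels came after day 2. Of 21 primitive endoderm genes, 1 was at least 1 higher and 3 at least 1 lower (median 0.17). Lrp2, encoding the endocytic receptor megalin, had 3.71 and 15.3 FPKM (1.79). The matrix and receptor genes Col4a2 (−1.07), Sparc (−1.04) and Pdgfra (−1.41) were lower, and fibroblasts express them too. The endoderm factors Gata4 and Gata6 stayed below 3 FPKM, at 0.17 and 0.28. With members under 1 FPKM left out the list median was −0.07, and the mean over its members was −0.0018, so its sign depended on the summary. Of the listed genes of definitive endoderm (8), mesoderm (6) and neuroectoderm (8), none was at least 1 higher, with medians of 0.30, −0.37 and −0.02. In mesoderm, Pdgfra was at least 1 lower. Among 11 trophoblast genes, Ascl2 (1.22) and Peg10 (1.03) were higher, and Tfap2c (39.4 and 7.32 FPKM, −2.28) and Krt7 (272 and 42 reads, −1.86) lower.

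**Figure D3:**
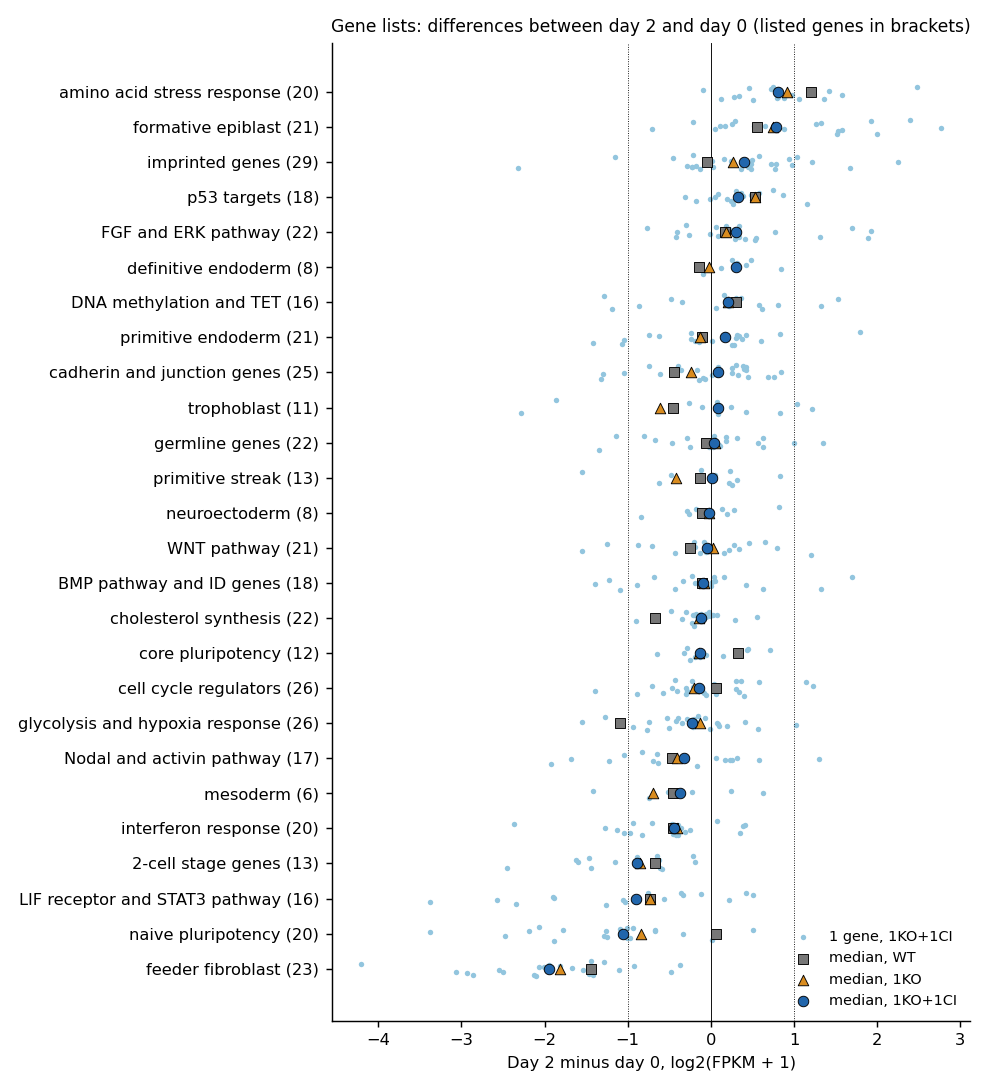
Differences between day 2 and day 0 in log2(FPKM + 1) for 26 gene lists, ordered by their median in 1KO+1CI cells, with each light point a gene of 1KO+1CI cells and the larger symbols list medians in WT (squares), 1KO (triangles) and 1KO+1CI cells (circles). The naive list has a median of −1.05 in 1KO+1CI, −0.84 in 1KO and 0.06 in WT cells. The glycolysis list has −0.22, −0.13 and −1.10.

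Amino acid stress genes, which ATF4 switches on when amino acids are short or the endoplasmic reticulum is strained, were higher in each line. Of 20, 6 were at least 1 higher in 1KO+1CI cells, against 1.81% of all genes. None was at least 1 lower, and the median was 0.81. In WT cells 13 were at least 1 higher, against 2.18% of all genes, with a median of 1.20. Chac1, which degrades glutathione, went from 118 to 736 reads, a ratio of 7.03 (exact 95% interval 5.78 to 8.61). Atf4 had 88.1 and 228 FPKM (1.36), Trib3, a pseudokinase induced with it, 6.95 and 22.7 FPKM (1.58), and Cth, an enzyme of cysteine synthesis, 17.1 and 41.1 FPKM (1.22). Mthfd2 (1.42) and Psat1 (1.06), enzymes of the folate and serine pathways, completed the 6. Ddit3, the CHOP factor, was the only member below 0, with 9.96 and 9.30 FPKM (−0.09).

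The C/EBP-ATF response element has the letters TTGCATCA in its best known form. In the 250 bases before the start, on both strands, 0.791% of all 32851 promoters hold these letters. Of 20 promoters of 17 genes of the amino acid stress list 5 do, namely those of Atf3, Chac1, Slc7a11, Nupr1 and Vldlr, against the share of all promoters just given. The match is a description and not a site. Their stretches of 90 bases are printed so that the element can be compared between a gene with a large difference (Chac1, 2.48) and genes with small ones (Vldlr 0.51, Atf3 0.46, Nupr1 0.33, Slc7a11 0.13). They are chr2:119351008-119351097 (plus strand), chr19:27216779-27216868 (plus), chr1:191183395-191183484 (minus), chr7:126625532-126625621 (minus) and chr3:50443621-50443710 (minus), in the order below, with each match in capitals, and Slc7a11 holds 2 matches in opposite directions.
Chac1: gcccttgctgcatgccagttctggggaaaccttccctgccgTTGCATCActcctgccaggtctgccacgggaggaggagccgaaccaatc
Vldlr: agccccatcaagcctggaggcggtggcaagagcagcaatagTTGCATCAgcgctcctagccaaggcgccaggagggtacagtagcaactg
Atf3: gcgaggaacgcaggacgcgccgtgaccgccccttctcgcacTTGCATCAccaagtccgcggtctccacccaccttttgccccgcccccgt
Nupr1: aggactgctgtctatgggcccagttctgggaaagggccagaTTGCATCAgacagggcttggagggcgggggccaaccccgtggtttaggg
Slc7a11: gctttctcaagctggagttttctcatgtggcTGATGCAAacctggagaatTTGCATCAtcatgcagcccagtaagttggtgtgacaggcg
Trib3, Atf4 and Mthfd2, with larger differences than the last 4, have promoters in the table without these letters in this window.

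Glycolysis and hypoxia genes differed between lines. In 1KO+1CI cells 1 of 26 was at least 1 higher and 3 were at least 1 lower, against 1.81% and 3.32% of all genes. The median was −0.22 in 1KO+1CI, −0.13 in 1KO and −1.10 in WT cells. Slc2a3, a glucose transporter, had 282 and 96.0 FPKM (−1.54), and Hk1 (−1.27) and Ndrg1 (−1.07) were the other lower members. Slc16a3, a lactate exporter, had 43.8 and 89.6 FPKM in 1KO+1CI cells (1.02) and 85.6 and 26.4 FPKM in WT cells (−1.66). In 1KO cells Slc16a3 differed by 0.77. Ldha, which makes lactate, differed by −0.18 in 1KO+1CI and −1.95 in WT cells, and Bnip3, a hypoxia target, by −0.41 and −2.69. Cholesterol synthesis showed a like arrangement, with a median of −0.12 in 1KO+1CI, −0.14 in 1KO and −0.67 in WT cells and no member past 1 in 1KO+1CI cells. Its lowest member, Insig1, which restrains sterol synthesis, was at −0.90.

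Of 18 p53 targets 1 was at least 1 higher, against 1.81% of all genes. It was Pmaip1, a pro-death BH3 gene (20.02 and 45.6 FPKM, 1.15). The list median was 0.33, with Sesn1 lowest at −0.31. Of 26 cell cycle regulators, 2 were at least 1 higher and 1 at least 1 lower, against 1.81% and 3.32% of all genes. Myc (16.4 and 37.5 FPKM, 1.14) and Cdkn1b, the p27 inhibitor (8.20 and 20.5 FPKM, 1.23), were higher, and Ccnd2, cyclin D2 (33.4 and 12.1 FPKM, −1.40), lower. Mki67 and Pcna, marks of cycling cells, differed by −0.21 and −0.08. Of 25 cadherin and junction genes none was at least 1 higher, with Cdh1, E-cadherin, at 98.9 and 133 FPKM (0.42) and Cldn6 highest at 0.84. The 3 junction genes at least 1 lower, against 3.32% of all genes, were Vim (−1.32), Fn1 (−1.29) and Snai2 (−1.04), which fibroblasts also express. In the interferon list 4 of 20 were at least 1 lower, against 3.32% of all genes. None was at least 1 higher (median −0.44, highest Bst2 at 0.41). The 4 lower were Isg15 (168 and 16 reads, −2.37), Oas1a (−1.28), Ddx58 (−1.12) and Irf7 (−1.05). These interferon genes differed in the same direction as the fibroblast list, whose part in them was not tested.

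Among 29 imprinted genes, 4 were at least 1 higher and 2 at least 1 lower, against 1.81% and 3.32% of all genes. Their median was 0.39. The higher genes were Nnat, Magel2 (0.904 and 5.08 FPKM, 1.68), Ascl2 and Peg10 (116 and 239 FPKM, 1.03). The lower genes were the neighbours Igf2 (25.9 and 4.38 FPKM, −2.32) and H19 (197 and 87.9 FPKM, −1.15), which are also expressed in fibroblasts. In 1KO cells H19 had 516 and 86.7 FPKM (−2.56). In WT cells Nnat, Magel2 and Peg10 differed by −0.32, 0.15 and 0.13, and in 1KO cells by 1.78, 1.26 and 0.29. Of 22 germline genes, 1 was at least 1 higher and 2 at least 1 lower, against 1.81% and 3.32% of all genes. Slc25a31, an ADP/ATP carrier of the testis, went from 108 to 312 reads (1.34). Rhox9 (152 and 42 reads, −1.34) and Rhox6 (201 and 71 reads, −1.14), homeobox genes of an X-linked cluster with closely related members, were lower in 1KO+1CI and 1KO cells and higher by 0.93 and 0.90 in WT cells. Genes of the 2-cell stage were all 13 below 0 (median −0.89, against 0.03 over all genes). At least 1 lower were 6 of them, against 3.32% of all genes. Medians were −0.85 in 1KO and −0.67 in WT cells. At least 1 lower were 5 of the 13 in 1KO cells and 0 in WT cells, against 3.32% and 3.87% of all genes. Zscan4d had 292 and 13 reads, a ratio of 0.0502 (exact 95% interval 0.0264 to 0.0871), and Zscan4a, Zscan4c, Usp17la, Usp17le and Gm8300 were the other 5. These families have near-identical copies, so the share of each member is uncertain. By day 4 Zscan4d was at 2.81 FPKM, after 6.13 and 0.307 FPKM on days 0 and 2.

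Compared over all genes, the day 2 differences of 1KO+1CI cells lay nearer to those of 1KO than of WT cells. Pearson's r across the 15074 genes was 0.794 with 1KO and 0.515 with WT, and Spearman's rho 0.713 and 0.472. These are descriptions across genes, which are not independent, between pairs of libraries that share none. Of the 273 genes at least 1 higher in 1KO+1CI cells, 120 (44.0%) were also at least 1 higher in 1KO and 83 (30.4%) in WT cells. Of all genes, 1.39% were at least 1 higher in 1KO and 2.18% in WT cells. Of the 500 lower genes, 338 (67.6%) were also at least 1 lower in 1KO and 174 (34.8%) in WT cells, against 3.32% and 3.87% of all genes. Opposite differences of at least 1 occurred in 16 genes between 1KO+1CI and WT cells and in 1 gene, Sumo2, between 1KO+1CI and 1KO cells.

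A test was possible for the change shared by the lines. In an additive limma fit of line and day to the 6 libraries of days 0 and 2, which takes the lines as replicates of the day, 1054 of 13024 genes (8.09%) rose and 1103 (8.47%) fell at an adjusted p under 0.05 (Benjamini-Hochberg). This tests the mean over the 3 lines and not 1KO+1CI cells alone, and it includes the libraries compared above. Because 1KO is the parental line of 1KO+1CI, the 3 lines are not independent replicates. By list, 14 of 20 amino acid stress genes rose and none fell, 11 of 18 p53 targets rose and none fell, and 21 of 23 fibroblast genes fell. In the LIF list 9 of 16 fell, in the naive list 6 of 20 fell, and in the formative list 7 of 21 rose and 1 fell. Of 17 Nodal and activin genes 7 fell and 1 rose, of the 20 FGF and ERK genes in the fit 5 rose and 1 fell, of 25 glycolysis and hypoxia genes 7 fell, and of 9 genes of the 2-cell stage 7 fell. The count of called genes, 2157, depended on the line left out: it was 4220 without WT, 353 without 1KO and 298 without 1KO+1CI cells.

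When the 1KO+1CI libraries were left out and the same fit was made on WT and 1KO cells, 117 of 12866 genes (0.909%) rose and 181 (1.41%) fell. Of the genes at least 1 higher in 1KO+1CI cells that entered this fit, 61 of 271 (22.5%) rose in the other lines and 2 fell. Of those at least 1 lower, 130 of 495 (26.3%) fell and none rose. The share called among these genes was thus above the background share of all genes in libraries that had no part in choosing them. Among single genes, Klf4 fell by 3.34 ± 0.16 (SE, 2 lines, limma adjusted p = 0.00467) and Socs3 by 2.90 ± 0.17 (limma adjusted p = 0.00541) in WT and 1KO cells. Chac1 rose by 2.92 ± 0.16 (limma adjusted p = 0.00537) and Dusp6 by 1.49 ± 0.13 (limma adjusted p = 0.0214). Pou3f1, with 1.41 ± 0.38 (limma adjusted p = 0.110), and Nnat, with 0.73 ± 0.46 (limma adjusted p = 0.388), did not pass in the other lines. Those 2 lines were unlike in these genes. Pou3f1 differed by 2.27 in 1KO and 0.55 in WT cells, and Nnat by 1.78 and −0.32.

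Among repeats, the 38385 listed copies had a median difference of 0.12 in 1KO+1CI cells, above that of genes, and 7.52% of copies were at least 1 higher and 4.85% at least 1 lower. Copies of the ERVK group of endogenous retroviruses, which includes IAP and ETn elements, had a median of 0.38 over 3142 copies, with 13.0% at least 1 higher. ERVL copies, which include MERVL, had a median of −0.20 over 1075 copies, with 12.7% at least 1 lower. The ERVK median was 0.15 in 1KO and 0.12 in WT cells, and the ERVL median −0.08 and 0.05. L1 copies had a median of 0.28 and satellite copies of 0.38, below those of WT cells, at 0.37 and 0.70. Copies share reads and 1 library, so they are not replicates. The median over all copies was itself above 0, so an even split is no background for the counts of higher and lower copies below. The share of all copies above 0 is not given here.

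For families with at least 10 listed copies (371 of 1042), the level was log2 of the mean FPKM over copies plus 1. At least 0.5 higher were 29 families (7.82%), of which 20 belong to ERVK and 5 to L1, and at least 0.5 lower were 6 families (1.62%). When libraries were scaled by the median ratio over repeat copies, 17 families were higher and 14 lower, so the excess of higher families depended on the scaling. The highest were IAPEY4_I-int (1.15), MMETn-int (1.03), RLTR13G (1.02), ETnERV-int (1.02) and ERVB4_1C-LTR_Mm (0.97). IAPEY4_I-int rests on 20 copies, of which 14 were higher. MMETn-int, the internal part of the ETn element, went from 32.4 to 67.4 FPKM on average, with all 79 copies higher, and differed by 0.66 in 1KO and 0.56 in WT cells. ETnERV-int had 58 of 60 copies higher, and RLTRETN_Mm, an LTR of the same elements, 62 of 65. In the other lines these ETn families were higher too, by less.

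IAPEz-int went from 2.26 to 4.62 FPKM per copy in 1KO+1CI cells, a difference of 0.79, with 425 of 426 copies higher. In 1KO cells the mean went from 7.14 to 4.70 FPKM (−0.51), with 402 copies lower, and in WT cells from 0.727 to 0.792 FPKM (0.05). The 1KO+1CI and 1KO cells therefore reached nearly the same mean at day 2 from different levels at day 0. Its LTR, IAPLTR1_Mm, went from 2.59 to 5.06 FPKM (0.76), with 74 of 76 copies higher, and differed by −0.60 in 1KO cells. By day 4 the means in 1KO+1CI cells were 23.4 FPKM for IAPEz-int and 22.1 FPKM for IAPLTR1_Mm. Dnmt1 RNA, transgene included, was lower at day 2 than at day 0 in these cells, as given above, and its part in the IAP difference was not tested.

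**Figure D4:**
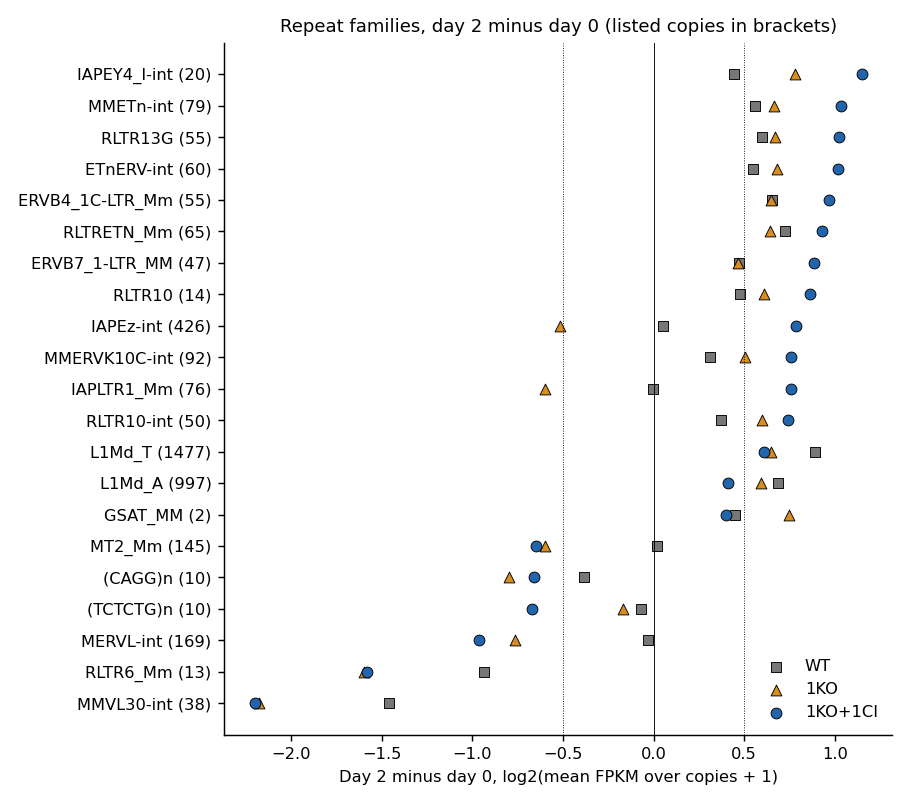
Difference between day 2 and day 0 of log2(mean FPKM over copies + 1) for 21 repeat families, with WT as squares, 1KO as triangles and 1KO+1CI cells as circles, the number of listed copies in brackets and dotted lines at −0.5 and 0.5. IAPEz-int and IAPLTR1_Mm lie on opposite sides of 0 in 1KO+1CI (0.79 and 0.76) and 1KO cells (−0.51 and −0.60).

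The lowest families were MMVL30-int (−2.20), RLTR6_Mm (−1.58), MERVL-int (−0.96), the simple repeats (TCTCTG)n (−0.67) and (CAGG)n (−0.66), and MT2_Mm (−0.65). MMVL30-int, the body of the VL30 retrovirus, went from 13.9 to 2.24 FPKM with all 38 copies lower, and RLTR6_Mm, its LTR, from 5.84 to 1.28 FPKM with all 13 lower. Both were also lower in WT (−1.46 and −0.93) and 1KO cells (−2.18 and −1.60), and in each line they moved with the fibroblast list, whose part in them was not tested. MERVL-int, the retrovirus active in 2-cell embryos, went from 2.64 to 0.872 FPKM with 167 of 169 copies lower, and its LTR MT2_Mm from 1.70 to 0.718 FPKM with 134 of 145 lower. In 1KO cells they differed by −0.76 and −0.60, and in WT cells by −0.03 and 0.02. The 2-cell stage genes, by contrast, had a median below 0 in each line, though none of the 13 was at least 1 lower in WT cells. Each simple repeat family rests on 10 copies, of which 1 was at least 1 lower.

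Young L1 elements were higher in the 3 lines. L1Md_T had 0.485 and 1.27 FPKM (0.61), with 1455 of 1477 copies higher, and L1Md_A had 0.732 and 1.30 FPKM (0.41), with 939 of 997 higher. In WT cells the differences were 0.89 and 0.69. The size for L1Md_T in 1KO+1CI cells depended on the processing, at 0.48 with scaling over repeat copies and 1.23 with a pseudocount of 0.1. By day 4 L1Md_T was back at 0.524 FPKM and L1Md_A at 0.314 FPKM in 1KO+1CI cells. GSAT_MM, the major satellite, is listed with 2 copies and had 0.833 and 1.41 FPKM (0.40).

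**Figure D5:**
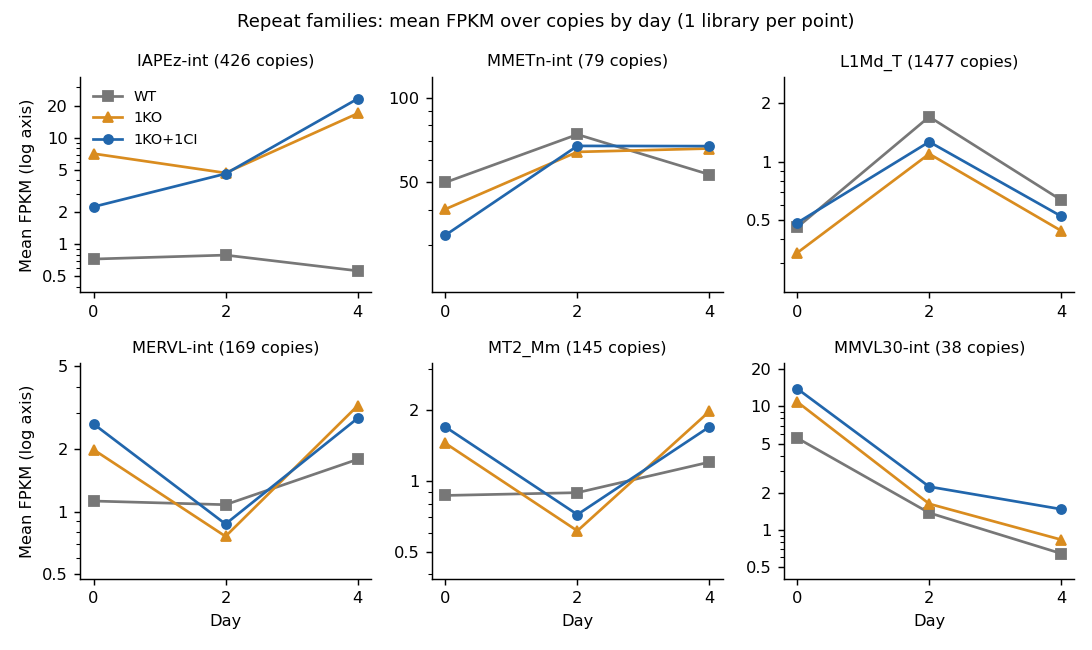
Mean FPKM over copies (log axis, scaled for each family) at days 0, 2 and 4 for 6 repeat families in WT (squares), 1KO (triangles) and 1KO+1CI cells (circles), with 1 library per point. In 1KO+1CI cells MERVL-int and MT2_Mm are lowest at day 2 and L1Md_T is highest there, while IAPEz-int goes from 2.26 to 4.62 and 23.4 FPKM.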

How the data were processed

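RNA of 9 libraries (WT, 1KO and 1KO+1CI cells at days 0, 2 and 4) was selected on poly(A) and sequenced. Per the submitters' notes, reads were processed with Trim Galore, HISAT2 (mm10), SAMtools and HOMER, and the authors deposited FPKM values per gene symbol and per repeat copy. For tool versions, strand setting and multimapped reads, the entry is: not given in the sources used here. No listed value is 0 (the lowest is 0.0013), so a gene or copy at 0 in some library would not be seen here.

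Entries without a gene name (21, holding up to 0.117% of a library's summed FPKM) were dropped. Differences were taken as log2(FPKM + 1), with no filter. Depth was recovered from the steps between low FPKM values: 98.1% of 4000 repeat copies and 22.1% of genes fell on whole steps within 0.1 of a step, against 0.05% and 0.075% after random shifts. Whether 1 step is 1 read is not known. A pair counted as 2 reads would widen the intervals.

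Genes were named by rule: the 12 highest and 12 lowest, members of 26 lists past 1 in either direction with each list's highest and lowest member, and all DNA methylation genes, while other members are named with their values as further examples chosen after these were seen. Members and lists were chosen with earlier results of these data known, and no list was taken from pictures of figures. Of the genes that the rule names, 1 is not reported here. Lists overlap in places (Klf4, Sp5, Fgf5). limma 3.58.1 in R 4.3.3 (eBayes with trend, at least 1 FPKM in 1 of 6 libraries) tested the day over lines, whose spread may include clone and culture. On simulated data for that comparison (12927 genes) it recovered 95 of 100 genes changed by 1 and 100 of 100 changed by 2 on the log2 scale, with 5 false calls. The simulation gave all genes equal noise and all lines the same day effect, and changed only genes above a set level. The real lines disagreed in many genes, so these figures do not give the error of the fit on the real libraries. Positions are from GENCODE M21, promoters from RefSeq (GRCm38.p6). Alternatives were other pseudocounts, scalings, filters and summaries. The other files were analysed with Python 3.11.15 (pandas, scipy and matplotlib).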

Additional observations from a re-analysis of the deposited data

Results flagged for a closer look

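In several cases the difference between day 2 and day 0 went one way in 1KO+1CI cells and the other way in another line by at least the threshold in each (1 for genes, 0.5 for repeat families). With 1 library per line and day, none of these differences between lines was tested. Sumo2 differed by 2.09 in 1KO+1CI cells, by −2.81 in WT cells and by −1.01 in 1KO cells. Car4 differed by 2.08 in 1KO+1CI and −1.67 in WT cells. The formative genes Fgf5 and Sox3 differed by 1.93 and 1.26 in 1KO+1CI cells and by −1.18 and −1.19 in WT cells. Bmp4 differed by −1.09 in 1KO+1CI and 1.39 in WT cells, and Slc16a3 by 1.02 and −1.66. In 1KO cells Car4, Fgf5, Sox3, Bmp4 and Slc16a3 had the same direction as in 1KO+1CI cells, at 1.35, 1.75, 0.65, −0.41 and 0.77. Among repeats, IAPEz-int differed by 0.79 in 1KO+1CI and −0.51 in 1KO cells, and IAPLTR1_Mm by 0.76 and −0.60.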

How the results depend on the processing

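Of 101 alternative values, 80 were labelled the same, 19 moved and 2 reversed. The same means a count within a set factor, or a value within 0.147 of the main one, so values near 0 could change sign. The primitive streak median of 0.01 became −0.024 with median-ratio scaling over genes, and its mean was −0.13. Both were labelled the same. The counts of genes at least 1 higher and lower (273 and 500) were 831 and 1160 with a pseudocount of 0.1, and 1071 and 1367 with 0.01. On a TPM scale, which multiplies FPKM by 2.47 at day 0 and 2.55 at day 2 and so makes the pseudocount smaller, 549 genes were higher and 750 lower. The formative list had a mean of 0.95 in place of its median. The primitive endoderm median of 0.17 became −0.068 with genes under 1 FPKM left out, and its mean was −0.0018. The fibroblast median was −2.26 with a pseudocount of 0.1 and −2.12 on the TPM scale. Families at least 0.5 higher and lower (29 and 6) numbered 56 and 10 with a pseudocount of 0.1, 17 and 14 with scaling by the median ratio over repeat copies, and 158 and 72 with families of any copy number. IAPEz-int differed by 1.00 with a pseudocount of 0.1 and by 0.60 with scaling over repeat copies. The limma count ranged from 298 to 4220 with 1 line left out. Where no construction is named, the cause was not tested. The limma fit compares the days within each line, and the labels give no replicate number for any other pairing. Depth limits genes with few reads, such as Mir7036.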
